A study of Mus musculus with 29 samples.

Results

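Loss of the enhancer hs654 was studied in the midbrain of mouse embryos of stage E11.5 by sequencing poly(A) RNA. Names of the form hs and a number come from the VISTA collection of human non-coding elements tested for enhancer activity in transgenic mouse embryos. The comparison set the 2 libraries of hs654 knockout midbrain against the 2 libraries of wild-type midbrain and covered every gene of the count tables. These 4 libraries are among 8 RNA-seq libraries and 29 samples in all. The other 4 RNA-seq libraries came from wild-type and hs267-853 knockout forebrain of the same stage, and they entered the filter on low counts and the shared estimate of spread but not the contrast. Knockout and wild-type midbrain were both whole dissected tissue with no treatment named. Each library was made from a pool of dissected pieces of 1 genotype, so a value is an average over embryos. The strain, the sex of the embryos, the zygosity of the deletion and its coordinates are not given in the sources used here. Nothing in the labels says how many embryos a pool holds. The p-values thus rest on the spread between pools of the 8 RNA-seq libraries and not on that between embryos. Since the deletion removes non-coding DNA, gene counts could not check the genotype labels.

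Zic4 and Zic1 were the genes of first interest. Both were named with earlier results of these data known, so their values are a description and not a test planned in advance. The Zic genes encode zinc-finger transcription factors of the dorsal neural tube, the roof of the brain and the meninges, and Zic1 and Zic4 stand back to back on 1 chromosome. They are known for their part in the growth of the cerebellum and in the patterning of dorsal neural tissue, and they modulate Wnt and Sonic hedgehog signalling. At this stage the midbrain is a tube of cycling ventricular progenitors that gives rise to GABAergic and glutamatergic neurons of the tectum and tegmentum, to dopaminergic neurons at the floor plate and to oculomotor neurons. Its hind border, the isthmus, secretes Fgf8 and Wnt1.

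In the RefSeq table of GRCm38.p6, which is mm10, Zic1 lies on the minus strand of chromosome 9 from 91358058 to 91365768 and Zic4 on the plus strand from 91365631 to 91389351. The gene spans share 138 bases, and reads from that stretch cannot be given to 1 of them without strand. The starts that the RefSeq promoter table uses lie 3204 bases apart. The 250 bases before each start are shown because both genes measured lower in the knockout and share this interval. Capitals mark CCAAT and GGGCGG on either strand. The Zic1 window is chr9:91365769-91366018 on the minus strand, and the Zic4 window is chr9:91368722-91368971 on the plus strand. Both lie inside the RefSeq span of Zic4. The start used for Zic4 is thus not its outermost RefSeq start, 91365631, and the bases before that one are not shown.
Zic1: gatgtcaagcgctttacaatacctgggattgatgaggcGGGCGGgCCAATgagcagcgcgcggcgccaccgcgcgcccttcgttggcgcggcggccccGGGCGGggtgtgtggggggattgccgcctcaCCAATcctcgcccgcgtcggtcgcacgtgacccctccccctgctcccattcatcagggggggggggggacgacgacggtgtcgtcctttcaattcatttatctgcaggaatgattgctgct
Zic4: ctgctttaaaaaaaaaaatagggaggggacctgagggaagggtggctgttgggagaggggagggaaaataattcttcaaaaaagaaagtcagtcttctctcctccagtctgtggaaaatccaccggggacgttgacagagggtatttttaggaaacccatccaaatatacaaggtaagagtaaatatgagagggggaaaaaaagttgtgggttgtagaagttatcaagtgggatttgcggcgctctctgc
The Zic1 window held CCAAT 2 times and GGGCGG 2 times, and the Zic4 window held neither. Of 32851 windows of the same length in the table, 33.9% held CCAAT and 32.7% held GGGCGG, which do not overlap each other as letters. G and C made up 66% of the Zic1 window and 44.4% of the Zic4 window, against a median of 52.4% over all windows. CG dinucleotides numbered 27 before Zic1 and 4 before Zic4 (median 6). The pair therefore differs in base composition before the starts that the promoter table uses, and the letters are given as a description only.

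Gene counts per midbrain library totalled 9051632 to 15780983, and the limit that a count of 0 allows, 3 counts, equalled 0.190 to 0.328 CPM (counts per 1000000 counts of the library, whose total TMM scales so that most genes are level). This limit covers counting error only. The tissue label fitted its markers: En2 measured 130 to 158 CPM in the 4 midbrain libraries and had 0 counts in the forebrain libraries. Libraries stood apart in 3 ways. Wild-type replicate 1 held more red blood cell RNA. Its sum over 15 erythroid genes was 8579 CPM, against 4519 CPM in wild-type replicate 2 and 4809 and 4217 CPM in the knockout. These sums hold repeated values, since Hba-a1 and Hba-a2 had the same counts, as did Hbb-b1 and Hbb-bs. Wild-type replicate 1 also held less mesenchymal RNA, with 1517 CPM over 16 genes. Its partner held 2111 CPM and the knockout 1922 and 2077 CPM. Xist, transcribed from the inactive X of females, measured 0.765 CPM in knockout replicate 2 and 856 to 2326 CPM in the other 3 libraries. Kdm5d, a gene of the Y chromosome, measured 28.0 and 66.7 CPM in the knockout and 26.9 and 57.7 CPM in wild type. Beside each list whose median turned without wild-type replicate 1, the value without it is given.

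Zic4 measured lower in the knockout and had the smallest p of any gene. It measured 44.7 and 43.5 CPM in the knockout libraries and 69.7 and 64.1 CPM in wild type. Both knockout pools lay below both wild-type pools, and the gap between genotypes was larger than the gap within either. The knockout mean was 44.1 ± 0.834 CPM and the wild-type mean 66.9 ± 4.00 CPM (SD, n = 2). The log2 fold change was -0.60 (95% interval -0.85 to -0.35), which put Zic4 at 65.9% of its wild-type level (interval 55.4% to 78.3%). A remaining level below 55.4% of wild type, and so a complete loss, lay outside the interval. In edgeR's quasi-likelihood test its unadjusted p was 0.000178, and the Benjamini-Hochberg adjusted p over 15383 genes was 0.992, so Zic4 did not pass the threshold of 0.05.

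The call on Zic4 differed between alternatives, while its size hardly moved. With the 4 midbrain libraries fitted alone, the adjusted p in edgeR was 0.0242 at a log2 fold change of -0.60. Without a filter on low counts it was 1.24e-06. Over the other alternatives without a replicate term it ran from 0.145 in DESeq2 to 1.00. In forebrain, whose libraries entered the shared spread, Zic4 measured 76.3 and 85.9 CPM with hs267-853 knocked out and 48.1 and 62.3 CPM in the wild type. Each group had its own mean, so only differences within a group entered that spread. Their part in the call on Zic4 was not tested. Leaving out wild-type replicate 1, the library rich in blood RNA, gave a log2 fold change of -0.54. Leaving out each of the 4 midbrain libraries in turn gave -0.66 to -0.54. An exact permutation test of 2 pools against 2 cannot give a two-sided p below 0.333, so it adds no call here.

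Zic1, the partner gene, also measured lower in the knockout, by a smaller factor. It measured 197 and 210 CPM in the knockout and 246 and 248 CPM in wild type, with no overlap between genotypes. The log2 fold change was -0.28 (95% interval -0.46 to -0.10), or 82.3% of the wild-type level (interval 72.6% to 93.2%). The unadjusted p was 0.00511, rank 30 of all genes, and edgeR's adjusted p was 0.992. A fall of Zic1 by as much as 1.5-fold lay outside its interval. Without a filter on low counts the adjusted p was 0.0261, and without knockout replicate 1 the log2 fold change was -0.23.

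Zic2 and Zic5 lie elsewhere, as a pair on chromosome 14, and neither was lower. Zic2, which acts in forebrain midline and dorsal neural tube development, measured 93.1 and 88.5 CPM in the knockout and 77.9 and 81.9 CPM in wild type. Its log2 fold change was 0.19 (95% interval -0.0036 to 0.38) with an unadjusted p of 0.0539 in edgeR. Both knockout libraries lay above both wild-type libraries. Zic5, its neighbour, measured 16.9 and 19.8 CPM against 16.0 and 15.5 CPM, a log2 fold change of 0.21 (interval -0.10 to 0.53). Zic5 also had both knockout libraries above both wild-type libraries.

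**Figure D1:**
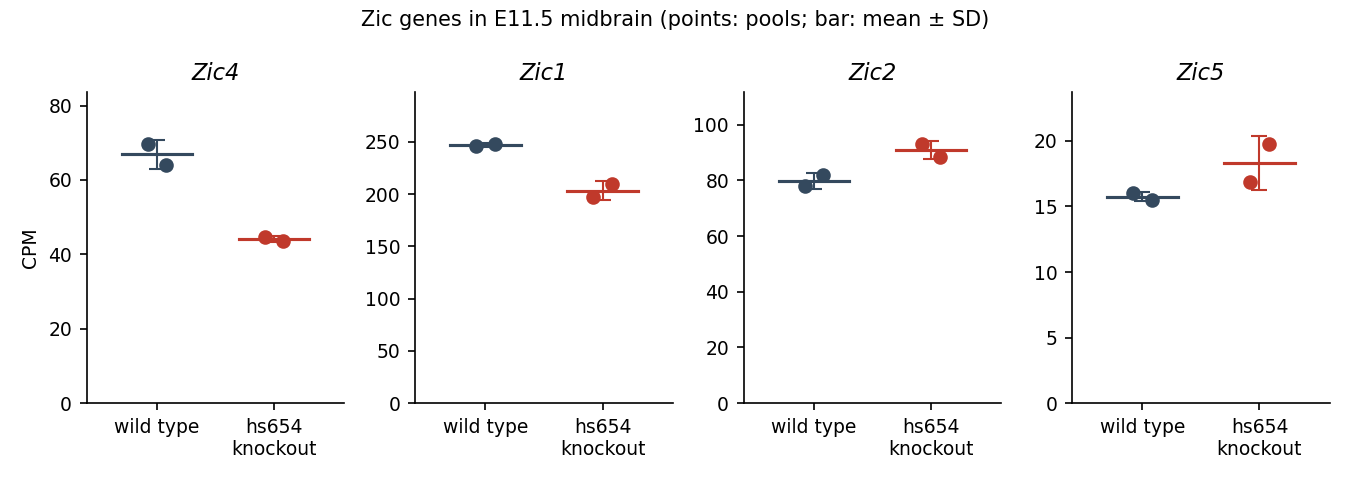
CPM (axis from 0) of 4 Zic genes in wild-type and hs654 knockout midbrain; each point is 1 pool, the horizontal bar the mean and the whisker the SD of 2 pools. Zic4 sits at 44.7 and 43.5 CPM in the knockout below 69.7 and 64.1 CPM in wild type, Zic1 is lower by a smaller factor, and Zic2 and Zic5 are not lower.

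Few other genes near Zic4 could be tested. The RefSeq table places 27 genes, Zic1 and Zic4 included, with a start within 1 Mb of the Zic4 start, of which 7 were in the count tables and 3 had enough counts to test. The third was Plscr1, a phospholipid scramblase gene 884563 bases away. It measured 11.2 and 9.07 CPM in the knockout and 10.9 and 13.3 CPM in wild type, so the genotypes overlapped. Its log2 fold change was -0.24 (95% interval -0.67 to 0.18). The other 4 counted genes, Plscr5, Plscr2, Mir6386 and 1700057G04Rik, had 0 to 9 counts in every midbrain library. The 20 neighbours outside the count tables, most of them long non-coding RNA genes or pseudogenes, were not analysed here.

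Across the transcriptome edgeR's quasi-likelihood test called 0 of 15383 genes (0%) at an adjusted p of 0.05. At an unadjusted p under 0.05 there were 327 genes lower (2.13%) and 282 higher (1.83%) in the knockout. DESeq2 and limma-voom also called 0 genes, with 94 lower and 147 higher, and 288 lower and 278 higher, at an unadjusted p under 0.05. Under RLE scaling the edgeR split was 250 lower and 337 higher, so the direction of the weaker differences depends on a shift of 0.01 in the centre of all genes. The median log2 fold change of all genes tested was -0.00092. Without a filter on low counts edgeR called 22 genes, 5 higher and 17 lower, among them 7 globin genes, Xist and Malat1. Of these globin genes, Hba-a1 and Hba-a2 had the same counts, as did Hbb-b1 and Hbb-bs.

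Pools of the same genotype differed about as much as pools of different genotypes. Over the 10595 genes with a mean of at least 10 CPM, the median absolute log2 difference was 0.081 between the knockout libraries and 0.090 between the wild-type libraries, and 0.084 to 0.104 in the 4 pairs of different genotype. The share of these genes that differed by more than 1.5-fold was 0.255% between the knockout pools and 1.03% between the wild-type pools. Across genotypes it was 0.264% to 0.963%, and the 2 highest of these 4 shares belonged to pairs with wild-type replicate 1.

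The data bound the size of change that could have been missed. Each gene has a 95% interval of its log2 fold change, and for 10489 of 15383 genes (68.2%) the whole interval lay inside 1.5-fold in either direction. For 12667 genes (82.3%) it lay inside 2-fold. The bound depended on the level of the gene. Among 2586 genes with at least 100 CPM the median outer bound was 1.15-fold, and 99.3% of intervals lay inside 1.5-fold. Among 8009 genes at 10 to 100 CPM the median bound was 1.26-fold, with 93.2% inside 1.5-fold and 99.8% inside 2-fold. Among 3739 genes at 1 to 10 CPM it was 1.91-fold, with 12.2% inside 1.5-fold and 56.0% inside 2-fold. Below 1 CPM, 0 of 1049 intervals lay inside 2-fold, and the median bound was 4.24-fold. Changes of 2-fold thus lay outside the interval of nearly all genes above 10 CPM.

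These intervals hold gene by gene. A level adjusted by Bonferroni over all genes, chosen after the data were seen, left 1605 intervals (10.4%) inside 1.5-fold and 6795 (44.2%) inside 2-fold. At that level the interval of Zic4 was -1.51 to 0.30, or 35.2% to 123% of the wild-type level. Among the genes with at least 10 CPM, 11 had a fold change beyond 1.5 and 0 beyond 2, and the SD of their log2 fold changes was 0.12. Of all genes, 5 had an interval lying wholly beyond 1.5-fold.

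**Figure D2:**
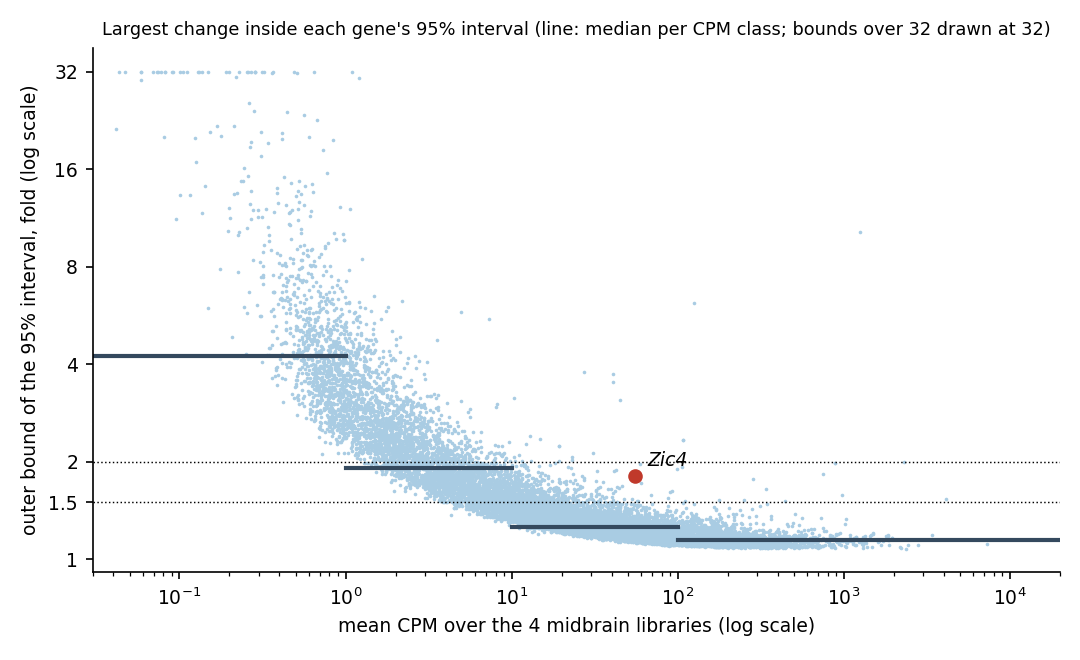
Outer bound of each gene's 95% interval, as a fold change in either direction (log scale), against its mean CPM over the 4 midbrain libraries (log scale); lines are medians of the 4 classes of level and dotted lines mark 1.5-fold and 2-fold. The medians step down from 4.24-fold below 1 CPM to 1.15-fold at 100 CPM and over, and Zic4 lies above most genes of its level.

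Behind Zic4, genes were named in order of p among those with a mean of at least 1 CPM whose genotypes did not overlap, 10 in each direction. None passed the threshold, and non-overlap here comes from the choice. Among all genes, both knockout libraries lay below both wild-type libraries for 18.8% and above them for 17.9%. On the lower side stood Eif3m, a subunit of translation initiation factor eIF3, Cep192, a centrosome scaffold (-0.25), Cdk1, the mitotic kinase, and Ccne2, a cyclin of S phase entry. Eif3m measured 107 and 110 CPM in the knockout and 137 and 127 CPM in wild type (log2 fold change -0.28, interval -0.42 to -0.14). Nalcn, a sodium leak channel, measured 14.5 CPM in both knockout libraries and 20.8 and 20.4 CPM in wild type (-0.50, interval -0.81 to -0.19). Gk, glycerol kinase, measured 12.7 and 11.8 CPM against 17.6 and 18.6 CPM (-0.56, interval -0.88 to -0.24). The rest were Zfp961 (-0.42), Pwwp3a (-0.24) and the blood gene Hemgn (-0.68).

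On the higher side the smallest p belonged to Pnmal2, of the paraneoplastic Ma antigen family. It measured 66.2 and 75.5 CPM in the knockout and 50.0 and 49.4 CPM in wild type, a log2 fold change of 0.51 (interval 0.23 to 0.78) with an unadjusted p of 0.00156 in edgeR. With no low-count filter edgeR called it. Olfml2a, an extracellular matrix protein gene at a low level, had the widest gap, with 2.75 and 2.51 CPM against 0.822 and 0.958 CPM (1.57, interval 0.61 to 2.54). Dmrtb1, a DM-domain transcription factor, measured 15.8 and 16.3 CPM against 10.6 and 10.1 CPM (0.63, interval 0.26 to 1.01). Sox9, a progenitor and glial-fate factor, measured 129 and 120 CPM against 108 and 107 CPM (0.22, interval 0.08 to 0.35). Sobp (0.36), the splicing regulator Khdrbs3 (0.28), Zbtb34 (0.33), the orphan receptor Gpr27 (0.44), the GTPase Rhob (0.22) and the ephrin receptor Ephb2 (0.18) completed the 10.

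**Figure D3:**
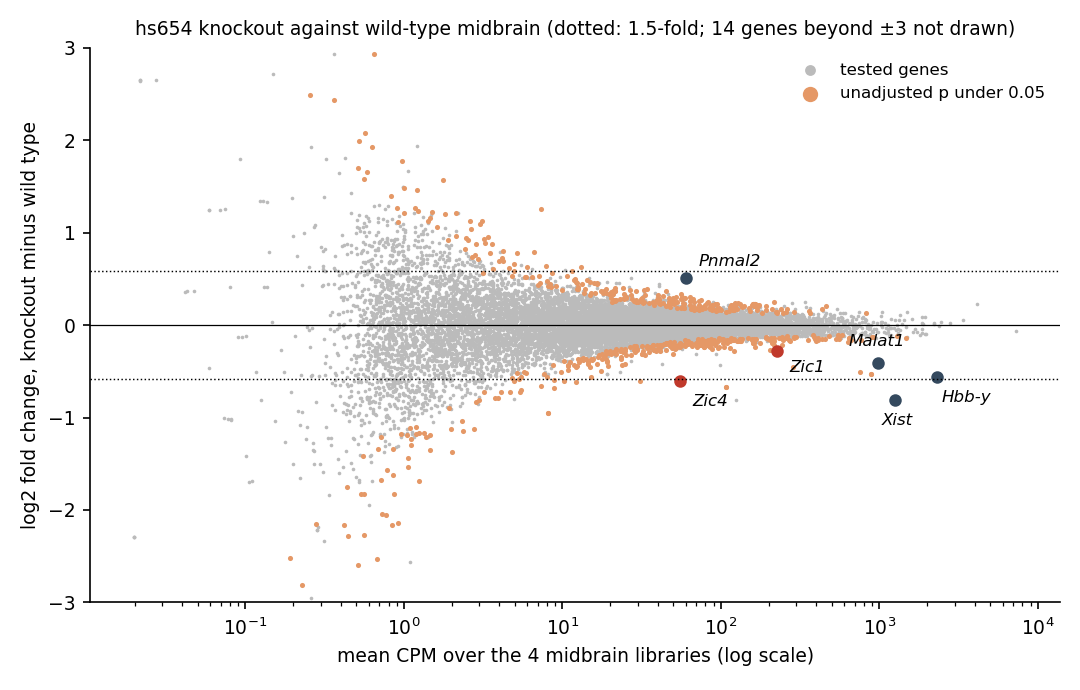
Log2 fold change (knockout minus wild-type midbrain) against mean CPM over the 4 libraries (log scale); grey points are tested genes, orange points have an unadjusted p under 0.05, dotted lines mark 1.5-fold, and 14 genes beyond 3 are not drawn. Zic4 at -0.60 stands at the edge of the genes of its level, and Xist, Hbb-y and Malat1 are lower at high CPM.

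The state of the midbrain was read from 22 lists of cell type, region and pathway genes, chosen with earlier results of these data known. They held 271 genes, of which 253 were tested and 0 passed an adjusted p of 0.05 in edgeR. At an unadjusted p under 0.05, 16 were lower (6.32%) and 5 higher (1.98%), against 2.13% and 1.83% of all genes. Zic4 and Zic1, whose family is 1 of the lists, were 2 of the 16 lower genes. Of the 16, 9 were erythroid genes, among them Hba-a1 and Hba-a2, and Hbb-b1 and Hbb-bs, pairs with the same counts. The erythroid median was -0.53, and -0.010 without wild-type replicate 1 or -0.42 without knockout replicate 2. Over the 253 tested genes, intervals lay inside 1.5-fold for 149 (58.9%) and inside 2-fold for 205 (81.0%), against 68.2% and 82.3% of all genes. RNA was measured on whole tissue, so fewer cells of a type and less RNA per cell cannot be told apart.

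Ventricular zone progenitors, which line the lumen and make the neurons, had a median change near 0. Vim, an intermediate filament of radial progenitors, measured 1430 and 1503 CPM in the knockout and 1462 and 1502 CPM in wild type (interval 91.7% to 107% of the wild-type level). Nes, another such filament, had a log2 fold change of 0.06 and the receptor Notch1 likewise 0.06. The median over 15 genes was 0.012 (0.0023 to 0.065 with 1 midbrain library left out), and 14 of 15 intervals lay inside 1.5-fold. Sox9, given above, had the lone unadjusted p under 0.05 in this list (0.00382 in edgeR).

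Genes of cycling cells mostly had negative log2 fold changes, and 0 of 15 passed the adjusted threshold in edgeR. Of the 15, 14 had a negative value, 10 had both knockout libraries below both wild-type libraries (18.8% of all genes did), and 5 had an unadjusted p under 0.05 on the lower side (2.13% of all genes). Leaving out 1 library left 2 to 4 such genes. Their median was -0.086. Under RLE scaling 13 of 15 were lower (median -0.076) and under upper-quartile scaling 15 of 15. Since the 15 genes were read in the same pools and can move together, such counts do not stand for separate measurements. Cdk1 measured 94.5 and 96.5 CPM in the knockout and 111 and 115 CPM in wild type (-0.24, interval -0.38 to -0.10). Ccne2 measured 46.2 and 43.4 CPM against 57.3 and 54.2 CPM (-0.31, interval -0.51 to -0.12). Both genes were lower in each knockout pool than in each wild-type pool. The replication genes Pcna (-0.17) and Mcm6 (-0.16) and the topoisomerase Top2a (-0.13) were the other 3. Mki67, the proliferation antigen, measured 788 and 765 CPM against 813 and 836 CPM (-0.09), while the mitotic kinases Aurkb (-0.01) and Plk1 (-0.0058) and the helicase gene Mcm3 (0.0024) differed little. All 15 intervals lay inside 1.5-fold. Leaving out 1 midbrain library at a time gave medians of -0.10 to -0.068, with 13 or 14 of 15 genes lower, and -0.10 without wild-type replicate 1.

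Genes that most neurons share had small positive log2 fold changes, and 0 of 13 passed the adjusted threshold in edgeR. All 13 values were positive, and 12 genes had both knockout libraries above both wild-type libraries (17.9% of all genes did). The 13 genes were read in the same pools and can move together, so they are not separate measurements of the genotype. The median was 0.12, and 13 of 13 were higher under RLE and upper-quartile scaling as well. Tubb3, the neuronal tubulin, measured 1067 and 1106 CPM in the knockout and 1020 and 955 CPM in wild type. Dcx, a microtubule protein of migrating neurons, measured 586 and 595 CPM against 550 and 526 CPM. Map2, a dendritic microtubule protein, measured 788 and 820 CPM against 779 and 744 CPM. In each case the lowest knockout pool stood above the highest wild-type pool by less than 10% of the level. The log2 fold changes of the 13 genes ran from 0.038 for Snap25 to 0.19 for Ina, and all 13 intervals lay inside 1.5-fold. The number of them with an unadjusted p under 0.05 was 0 in edgeR, 4 without a filter on low counts and 6 with the 4 midbrain libraries alone, where 530 of 14733 genes were higher at that p. Leaving out 1 library gave medians of 0.089 to 0.17, with 12 or 13 of 13 genes higher, and 0.13 without wild-type replicate 1.

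Genes of neurogenic progenitors, the cells on their way to becoming neurons, showed no shared direction that every library supported. Of 13 tested, 10 had a positive log2 fold change, and the median of 0.093 turned to -0.017 without wild-type replicate 2 and was 0.20 without wild-type replicate 1. Hes6, which promotes neuronal differentiation, had a log2 fold change of 0.11 and the antiproliferative gene Btg2 0.03. Atoh1, a proneural factor of the rhombic lip, had the widest interval (-0.21 to 2.65) at 0.379 to 3.28 CPM.

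Neuron subtypes were measured less tightly. Of 13 GABAergic genes 8 had a positive log2 fold change (median 0.094, 0.17 without wild-type replicate 1 or 0.048 without wild-type replicate 2), with 8 intervals inside 1.5-fold and 13 inside 2-fold. Lhx1, a LIM factor of early GABAergic neurons, measured 90.2 and 91.0 CPM in the knockout and 77.3 and 74.4 CPM in wild type. Its log2 fold change of 0.25 (interval 0.07 to 0.44) had an unadjusted p of 0.0116 in edgeR, and the genotypes did not overlap. Gad1, an enzyme of GABA synthesis, measured 28.3 and 25.0 CPM against 27.4 and 27.5 CPM, and the selector factor Tal2 overlapped between genotypes (-0.05). Of 10 glutamatergic genes tested 7 had a positive log2 fold change (median 0.10). Slc17a6, the vesicular glutamate transporter, measured 88.4 and 95.6 CPM against 86.3 and 73.1 CPM (0.20, interval -0.10 to 0.50).

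In the floor plate and dopaminergic lineage 13 of 15 genes were tested, with a median of 0.088 that turned negative without knockout replicate 2 (-0.020) or without wild-type replicate 1 (-0.0021). It was 0.20 without wild-type replicate 2. Nr4a2, needed for dopaminergic fate, measured 28.6 and 31.4 CPM in the knockout and 20.8 and 27.0 CPM in wild type. Its log2 fold change was 0.33 (interval 0.0078 to 0.65) with an unadjusted p of 0.0457 in edgeR. Th, the enzyme that makes dopamine precursor, measured 4.47 to 5.68 CPM, and its interval ran from 79.9% to 186% of the wild-type level. Pitx3 and Slc6a3, markers of mature dopaminergic neurons, measured under 0.5 CPM in every midbrain library and were not tested. The oculomotor and cholinergic list was scarcer still: of 7 tested genes 0 had an interval inside 1.5-fold and 2 inside 2-fold, and the median of 0.11 turned without knockout replicate 1 (-0.037) or wild-type replicate 1 (-0.26). Slc5a7, the choline transporter, measured 4.30 and 4.15 CPM against 1.52 and 2.40 CPM (1.13, interval 0.24 to 2.02).

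Regional identity showed no called difference. Otx2, which sets the midbrain side of the isthmus, measured 260 and 244 CPM in the knockout and 280 and 253 CPM in wild type (interval 81.4% to 110% of the wild-type level). En2 measured 155 and 148 CPM against 130 and 158 CPM. The low value here was that of wild-type replicate 1. Fgf8, the isthmic signal, measured 4.04 and 3.50 CPM against 3.54 and 6.23 CPM, with an interval too wide (-1.02 to 0.33) to place a change of 2-fold outside it. Of the 15 isthmus genes, 7 had an interval inside 1.5-fold and 10 inside 2-fold. The lowest value was that of Pax8, at 1.89 and 2.51 CPM against 3.35 and 4.15 CPM (-0.77, interval -1.58 to 0.02). Pax2 had the highest, at 5.94 and 2.73 CPM against 2.47 and 3.27 CPM (0.62, interval -0.29 to 1.53). The median of the 15 isthmus genes was 0.077 and turned to -0.11 without wild-type replicate 1. It was 0.25 without wild-type replicate 2.

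The dorsal midbrain and tectum list, the region where Zic genes act, had a median of -0.010 over 15 genes, with 8 negative and 7 positive log2 fold changes. The median turned without knockout replicate 1 (0.050), knockout replicate 2 (0.027) or wild-type replicate 2 (0.12). All 15 intervals lay inside 2-fold and 11 inside 1.5-fold. Dbx1, a progenitor homeobox gene, measured 185 and 162 CPM in the knockout and 198 and 166 CPM in wild type. Pax7, a tectal factor, measured 43.2 and 34.7 CPM against 36.0 and 36.3 CPM (interval 87.6% to 133% of wild type). In both genes the genotypes overlapped. Among dorsal midline genes, Wnt3a (0.03) and Lmx1a (0.22) also overlapped, and Olig3 had both knockout libraries above wild type (0.30, interval -0.12 to 0.73).

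The 2 signalling pathways that Zic factors are known to modulate had medians near 0. Of 17 Wnt pathway genes 7 were lower and 10 higher, with a median of 0.017 and 0 at an unadjusted p under 0.05 in edgeR. The median turned to -0.022 without wild-type replicate 1 and to -0.016 without knockout replicate 1. Axin2, a direct target of Wnt signalling, measured 125 and 112 CPM in the knockout and 117 and 121 CPM in wild type (interval 86.9% to 115%). Tcf7l2, a transcriptional effector also strong in the thalamus, measured 292 and 317 CPM against 276 and 240 CPM (0.24, interval -0.04 to 0.51). Of 14 Sonic hedgehog genes the median was 0.033 (-0.0082 without wild-type replicate 1), and again 0 had an unadjusted p under 0.05. The receptor Ptch1 had a log2 fold change of 0.02 (interval -0.13 to 0.17) and the target Gli1 one of 0.14 (-0.09 to 0.37). Changes of 1.5-fold lay outside the interval for 14 of 17 Wnt and 12 of 14 hedgehog genes.

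**Figure D4:**
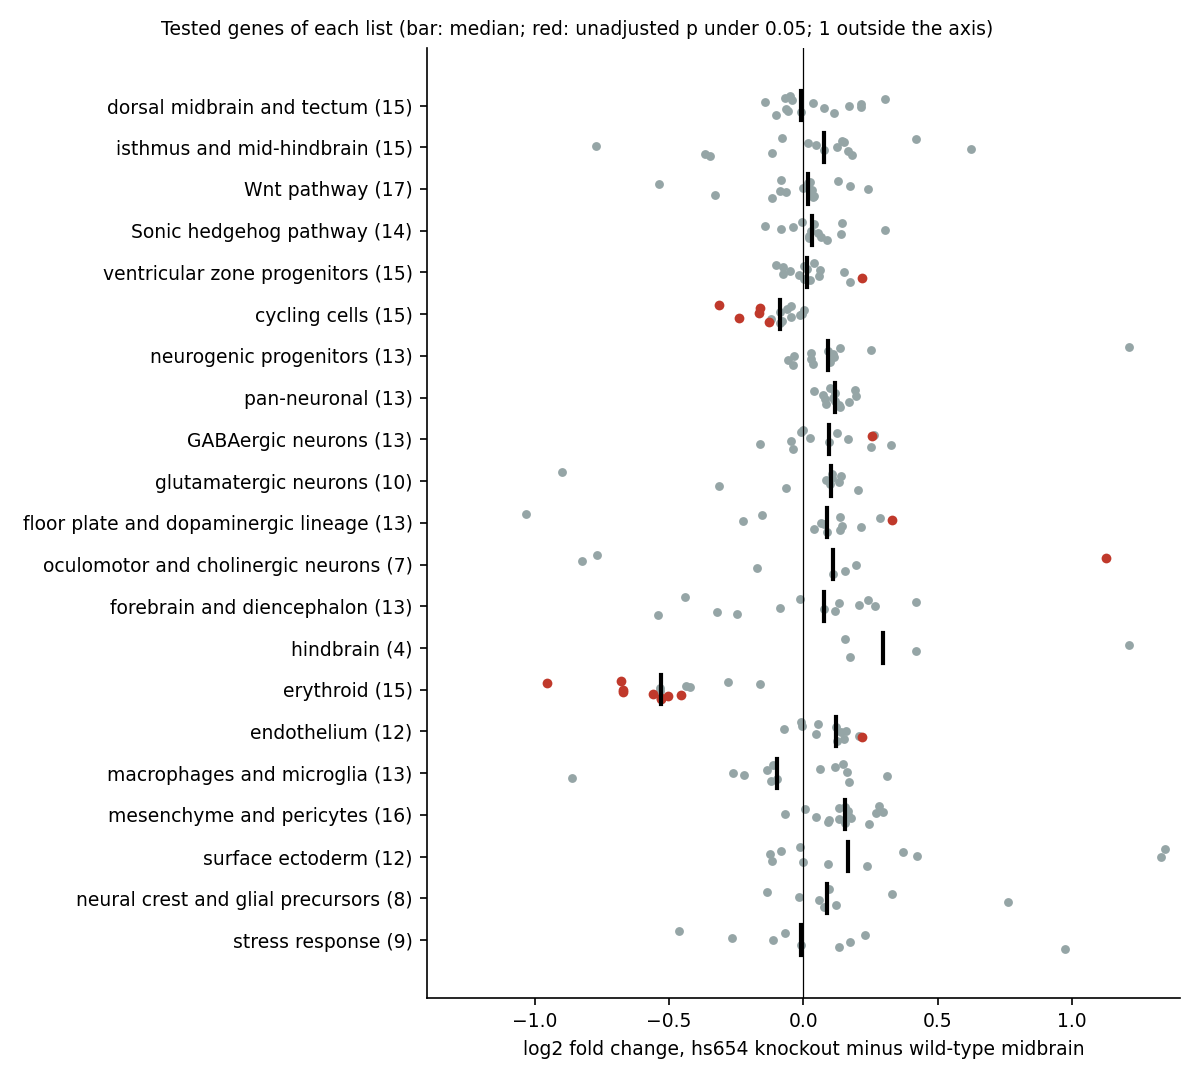
Log2 fold change (knockout minus wild-type midbrain) of the tested genes of each list drawn, 1 point per gene, with the list median as a bar and the number of tested genes in brackets; red points have an unadjusted p under 0.05 and 1 gene lies outside the axis. Cycling-cell genes sit just below 0 and pan-neuronal genes just above it, and the erythroid genes lie lowest with a median of -0.53.

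For cells outside the neural tissue, several values turned on wild-type replicate 1. All 15 erythroid genes had a negative log2 fold change (median -0.53), 9 with an unadjusted p under 0.05 in edgeR. Hbb-y, an embryonic globin, measured 1951 and 1786 CPM in the knockout and 3644 and 1864 CPM in wild type, so the genotypes overlapped. Without wild-type replicate 1 the erythroid median was -0.010, with 8 of 15 lower. Hba-a1 and Hba-a2, and Hbb-b1 and Hbb-bs, had the same count in every library and are not separate measurements. Of 16 mesenchyme and pericyte genes 15 were higher (median 0.15), and without wild-type replicate 1 the median was -0.088 with 12 of 16 lower. It was 0.068 without knockout replicate 2 and 0.44 without wild-type replicate 2. Endothelial genes had a median of 0.12 and 12 of 12 intervals inside 1.5-fold, and Kdr, the vascular growth factor receptor, measured 85.7 and 84.9 CPM against 66.9 and 80.3 CPM (0.22, interval 0.03 to 0.40). The endothelial median turned to -0.024 without wild-type replicate 1 and was 0.27 without wild-type replicate 2.

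Other lists marked what else a dissection could hold. Macrophage genes had a median of -0.099. It turned without knockout replicate 1 (0.014) or wild-type replicate 2 (0.070) and was -0.17 without wild-type replicate 1. Emx1 and Fezf2, forebrain genes, were each highest in wild-type replicate 2 (4.47 and 6.79 CPM), and the forebrain and diencephalon list had a median of 0.077 (0.071 to 0.14 with 1 library left out). Of 12 hindbrain genes 4 were tested (median 0.30, but 0.15 without wild-type replicate 1 and 0.57 without wild-type replicate 2), and Hoxb1 and Egr2 had 0 counts in all 4 libraries. Surface ectoderm genes summed to 17.0 to 21.5 CPM in every library (median log2 fold change 0.16, with 0 without knockout replicate 1 and 0.33 without wild-type replicate 1, and with 0 of 12 intervals inside 2-fold). Neural crest and glial precursor genes summed to 233 to 253 CPM (median 0.086, which turned without knockout replicate 1). Stress response genes had a median of -0.0082, which was 0.15 without wild-type replicate 1 and 0.090 without knockout replicate 2. Malat1, a nuclear non-coding RNA, was highest in wild-type replicate 1, at 1300 CPM against 932 CPM in its partner and 807 and 876 CPM in the knockout. The part of blood, mesenchyme and Malat1 in the Zic4 difference was not tested beyond the fit without that library, which gave -0.54.

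**Figure D5:**
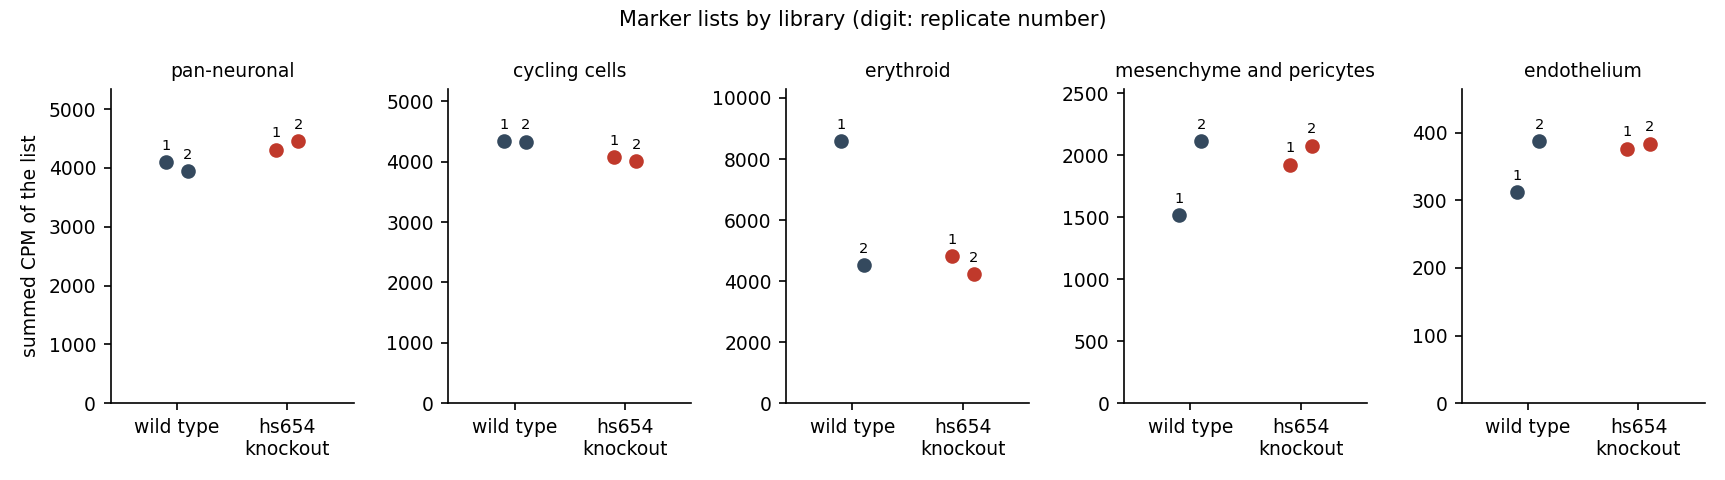
Summed CPM (from 0) of 5 marker lists in each pool, with the replicate number beside each point. Pan-neuronal sums (4309 and 4451 CPM in the knockout, 4099 and 3947 CPM in wild type) separate the genotypes. So do cycling-cell sums (4076 and 4006 against 4339 and 4333 CPM). Sums of some lists not drawn, such as ventricular zone progenitors and the Wnt pathway, separate them too, while dorsal midbrain and tectum sums overlap. Erythroid, mesenchymal and endothelial sums set wild-type replicate 1 apart.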

How the data were processed

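Poly(A) RNA of pooled tissue was sequenced, and the authors deposited raw counts per gene symbol, 1 table per library. Per the submitters' processing notes, STAR, HTSeq and DESeq2 were used with the mm10 build. Versions, annotation and strand setting are not given in the sources used here. The 5 rows that name no gene were left out of library sizes and tests. In midbrain, positions in no feature took 57.2% to 58.9% and ambiguous ones 0.431% to 0.463% of gene, no-feature and ambiguous counts together.

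Counts of 8 libraries were fitted with edgeR 4.0.16 in R 4.3.3 (filterByExpr, TMM, quasi-likelihood, 1 mean per group), since 2 pools per group leave little to estimate spread. This gave 12.7 degrees of freedom and a biological coefficient of variation of 7.62%. Of 25239 genes, 15383 were tested, two-sided, with Benjamini-Hochberg adjustment. Intervals used the Wald standard error with the fitted dispersion and a t quantile. CPM use TMM-scaled library sizes. Counts of replicate pairs differed by more than sampling allows (chi-square over degrees of freedom of 3.75 and 5.56).

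Named were Zic genes, tested genes within 1 Mb of Zic4, the 10 lower and 10 higher genes with the smallest p (mean of at least 1 CPM, no overlap), the 3 most abundant members of each list with those at an unadjusted p under 0.05, and genes called under an alternative. A few others illustrate their list and were chosen after their values were seen. Some genes that the rule names are not reported here. The members and lists were chosen with earlier results of these data known. A list of 6 sex-linked genes completed the 23 lists, and Xist and Kdm5d stand for it in the text. Of the 6, Xist and Tsix were lower (both -0.81) and the 4 Y-linked genes higher (0.16 for Kdm5d to 0.51 for Uty). The list median of 0.29, or -0.19 without knockout replicate 2, thus mixes opposite directions.

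The alternatives tried were upper-quartile or RLE scaling, no low-count filter, a minimum mean of 50 counts, limma-voom 3.58.1, DESeq2 1.42.0, the 4 midbrain libraries alone, replicate number as a block, each midbrain library left out in turn, and 99% intervals. Promoter letters came from the RefSeq table of GRCm38.p6. Its 1843 overlapping windows on opposite strands were reverse complements, so letters read in the direction of the gene. The 21 Hi-C samples were not analysed here.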

Additional observations from a re-analysis of the deposited data

How the results depend on the processing

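No gene was called under RLE or upper-quartile scaling, a mean of at least 50 counts, DESeq2, limma-voom or a replicate block within each tissue. The number called was 22 without a filter on low counts and 1 (Zic4) with the 4 midbrain libraries alone. Leaving out 1 midbrain library gave 0 to 8 called genes, 8 without wild-type replicate 2 (globin genes, Slc4a1 and Malat1) and 2 without knockout replicate 1 (Xist and Tsix). Of the 22 genes called without the filter, 12 were list genes, namely Zic4, Zic1, Col1a1 and erythroid genes. Among the erythroid genes, Hba-a1 and Hba-a2, and Hbb-b1 and Hbb-bs, had the same counts. The 1 gene called with the 4 libraries alone, Zic4, was a list gene too. In the main fit 253 of 15383 tested genes were list genes. Zic4 measured -0.59 without the filter and -0.60 with the 4 libraries alone, past the threshold in both, and -0.66 to -0.54 with 1 library left out. Zic1 measured -0.27 without the filter, past the threshold, and -0.33 to -0.23 with 1 library left out. The cause of these changes was not tested.

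With a replicate block in the 4 midbrain libraries 9 genes were called (2 higher, 7 lower), 6 of them list genes. Zic4 was then -0.60 (adjusted p 0.000971) and Zic1 -0.28 (adjusted p 0.0232), both past the threshold in edgeR. The labels do not say that a number marks a shared litter or day. Same-numbered libraries deviated together with r = 0.149. This single value from 2 numbers cannot tell whether such pools share more than a number.

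The number of genes with a 95% interval inside 1.5-fold was 8984 to 9382 with 1 library left out and 9023 with a 99% interval. The 104 other named genes had the same direction in 928 of 928 values under the alternatives that use every midbrain library and in 362 of 416 with 1 left out. These alternatives refit the same libraries, and some of the genes were chosen for a small p and no overlap. A kept direction was thus largely set beforehand. Precision was lowest for genes below 10 CPM. Intervals there reflect counting error and a spread between pools that was estimated from all 8 libraries with information shared across genes. The 2 parts were not separated.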
